A study of Homo sapiens with 4 samples.

Results

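Tubulin isotypes are closely related proteins encoded by separate genes, and stathmin is a small protein that binds their dimers. The set described here holds 10 genes, taken by name from the 54628 genes of each count table: 4 alpha-tubulins (TUBA1A, TUBA1B, TUBA1C, TUBA4A), 5 beta-tubulins (TUBB, TUBB2A, TUBB3, TUBB4B, TUBB6) and stathmin 1 (STMN1). All 10 were found and all 10 passed the filter on low counts. Poly(A) RNA was sequenced from Panc1, an established human line derived from ductal cancer of the pancreas. By label, 2 libraries received small interfering RNA (siRNA) against HMGB2, which encodes a DNA-bending protein of chromatin, and 2 received scramble siRNA. All libraries come from this single line, and the sources used here do not give the siRNA sequence, its dose or the time after transfection. Nothing in the labels says whether the libraries of a group are separate cultures. The p-values therefore cover the spread of these libraries only, and that spread may be technical.

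The 4 libraries held 20340695 to 31852391 counts. HMGB2 went against the labels: it had 4021 and 2746 counts where the label says HMGB2 siRNA, and 346 and 319 counts where it says scramble. The deposited count columns are also headed with the treatment opposite to the label. Groups are named below by their labels, and each direction is labelled HMGB2 siRNA (HMGB2 high) relative to labelled scramble (HMGB2 low). Of 6 ductal epithelium markers the keratins KRT8, KRT18 and KRT19 were abundant, with KRT8 at 1960 to 2772 CPM (counts per 1000000 counts of the library, with its total scaled by TMM), while EPCAM had 16.6 to 18.5 CPM and KRT7 2.59 to 4.74 CPM. This list also differed between the groups by the test used below: KRT8 was 1.22-fold, KRT19 1.61-fold and KRT7 1.67-fold higher, and SOX9 was lower (log2 fold change -0.25). The acinar genes PRSS1 and AMY2A and the leukocyte gene CD3E were listed at 0 in all libraries. TUBB3 and TUBA1A are also neuronal genes, so neuronal markers were read beside them. The summed fibroblast markers had 55.4 to 77.1 CPM, nearly all COL1A1 (55.2 to 76.7 CPM), with DCN at 0. The summed leukocyte markers had 98.7 to 121 CPM, nearly all CD68, and the summed endothelial markers at most 0.191 CPM. Of the neuronal markers NEFM was at 0, DCX, SNAP25 and RBFOX3 did not exceed 0.480 CPM, and MAP2 (34.9 to 48.4 CPM) and SYP (12.2 to 16.7 CPM) were the 2 of 6 above that. The summed level of the 6 neuronal markers was 61.4 and 63.3 CPM with the label HMGB2 siRNA and 47.6 and 57.1 CPM with the label scramble. MAP2 was called higher (1.29-fold, edgeR adjusted p = 0.000414), as was the fibroblast marker PDGFRB at 0.827 and 1.07 CPM against 0.318 and 0.192 CPM (edgeR adjusted p = 0.00625). The part of these markers in the results was not tested.

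Microtubules are polymers of alpha- and beta-tubulin dimers that form the mitotic spindle, carry cargo and shape the cell. Isotypes differ mainly in their acidic carboxy-terminal tails, where many modifying enzymes and motors act. Stathmin binds unpolymerised dimers and promotes microtubule shortening, and its phosphorylation at entry into mitosis releases that hold. Cells also tune tubulin transcripts to the pool of free dimers: when free tubulin rises, the protein TTC5 recognises the first residues of a nascent tubulin chain and starts decay of the transcript being translated.

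The coding starts below are shown because this autoregulation reads the peptide that they encode. They were taken from GENCODE release 29 transcripts (GRCh38) and run 5′ to 3′ over the first 30 coding bases, with the first 12 (4 codons) in capitals.
TUBA1A: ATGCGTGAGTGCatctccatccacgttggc
TUBA1B: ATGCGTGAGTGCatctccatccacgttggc
TUBA1C: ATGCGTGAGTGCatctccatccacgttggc
TUBA4A: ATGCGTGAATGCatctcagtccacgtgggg
TUBB: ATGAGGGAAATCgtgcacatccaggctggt
TUBB4B: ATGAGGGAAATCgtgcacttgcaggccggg
TUBB3: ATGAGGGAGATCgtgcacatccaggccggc
TUBB6: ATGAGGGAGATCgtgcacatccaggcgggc
TUBB2A: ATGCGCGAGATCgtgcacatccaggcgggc
STMN1: ATGGCTTCTTCTgatatccaggtgaaagaa

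TUBA1A, TUBA1B and TUBA1C were identical over all 30 bases, and over 19524 genes compared no other gene began with their 12 capital bases. TUBB shared its 12 capitals with TUBB4B and TUBB8P12, and TUBB3 shared its own with TUBB6 and TUBB8. STMN1, which is no tubulin, differed from TUBB at 9 of the 12. These groups are of bases, not of peptides. In all beta members the capital codons encode methionine, arginine, glutamate, isoleucine, and in all alpha members methionine, arginine, glutamate, cysteine. Genes with the same capital bases had both like and unlike calls. TUBB and TUBB4B were both higher in the test below. TUBA1A did not pass the test below while TUBA1B and TUBA1C were higher, and TUBB3 was lower while TUBB6 was higher. Neither the differences between these genes nor the part of autoregulation in the calls was tested.

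Across the set, 7 of 10 genes were higher in the libraries labelled HMGB2 siRNA (HMGB2 4021 and 2746 counts) than in those labelled scramble (HMGB2 346 and 319 counts), 1 was lower and 2 did not pass. Of all 15161 genes tested, 30.8% were called, 16.7% as higher and 14.1% as lower (edgeR, quasi-likelihood test with adjusted p under 0.05). The genes called higher were TUBA1B, TUBA1C, TUBA4A, TUBB, TUBB4B, TUBB6 and STMN1, and the gene called lower was TUBB3. The median log2 fold change of the 10 genes was 0.35, beside -0.01 over all genes tested. The members were chosen with results of these data known, so the count is a description. Both libraries of a group lay above both of the other for 7 genes with the label HMGB2 siRNA on top and for 2 with scramble on top. Of all genes tested, 63.7% were separated in this way, 32.0% with HMGB2 siRNA on top and 31.6% with scramble on top. With TMM scaling 54.3% of all called genes were higher, against 42.0% with upper-quartile and 43.3% with total-count scaling.

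**Figure D1:**
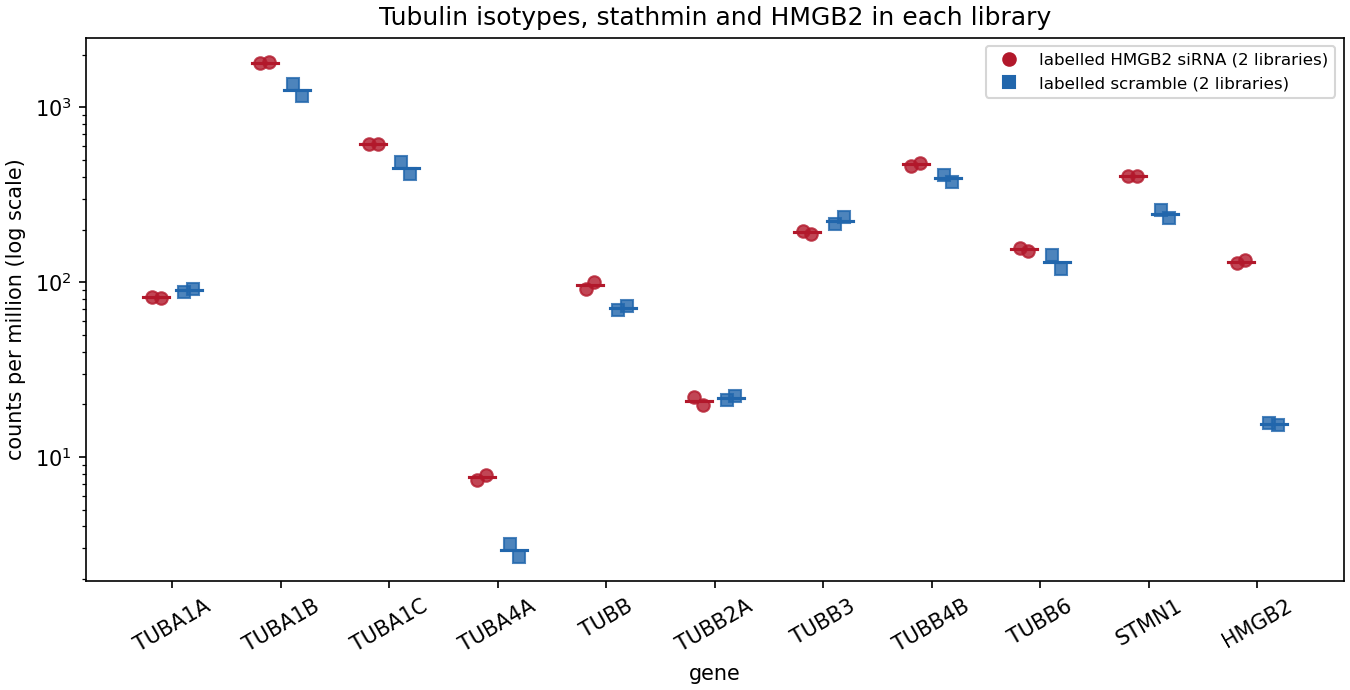
CPM of the 10 genes and of HMGB2 in each of the 4 libraries (log axis), by label, with a bar at each group mean. TUBA1B reaches 1786 and 1808 CPM in the libraries labelled HMGB2 siRNA, while TUBA4A stays below 8 CPM in every library.

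Among the alpha-tubulins, the broadly expressed TUBA1B (chromosome 12, 49127782 to 49131395, minus strand, GRCh38) was the most abundant gene of the set. It had 1786 and 1808 CPM with the label HMGB2 siRNA and 1361 and 1163 CPM with the label scramble. The groups did not overlap, and the gap between the scramble libraries was wider than that between the other pair. TUBA1B was 1.42-fold higher, a log2 fold change of 0.51 ± 0.07 (SE; edgeR adjusted p = 7.75e-08). TUBA1C (chromosome 12, 49227926 to 49274600, plus strand), another broadly expressed alpha-tubulin of the same cluster, had 616 and 619 CPM against 490 and 415 CPM. Its scramble replicate 2 was again the lowest library, and it was 1.37-fold higher (log2 fold change 0.45 ± 0.07; edgeR adjusted p = 6.69e-07).

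TUBA1A (chromosome 12, 49184795 to 49189080, minus strand), the alpha-tubulin that predominates in developing neurons, lies between them on the chromosome. It had 81.8 and 81.6 CPM with the label HMGB2 siRNA and 88.3 and 90.9 CPM with the label scramble. The groups did not overlap, but the log2 fold change of -0.13 (95% interval -0.27 to 0.01) did not pass the test (edgeR adjusted p = 0.144). With upper-quartile scaling it was called lower, at -0.18 (edgeR adjusted p = 0.0351), and likewise with total-count scaling (-0.18, edgeR adjusted p = 0.0431).

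TUBA4A (chromosome 2, 219249710 to 219254740, minus strand) encodes an alpha-tubulin that is made without the terminal tyrosine of the other alpha isotypes. It was the rarest gene of the set, with counts of 232 and 162 where the label says HMGB2 siRNA and of 70 and 56 where it says scramble. These corresponded to 7.38 and 7.89 CPM against 3.18 and 2.69 CPM. It had the largest fold change of the 10 genes, 2.59-fold, with a log2 fold change of 1.37 ± 0.19 (SE; edgeR adjusted p = 7.42e-08). TUBA4A shares 628 exonic bases, 23.3% of its length, with STK16 on the opposite strand, and without the strand setting of the counting their reads cannot be told apart there. STK16 itself had 23.9 and 27.0 CPM against 22.6 and 20.2 CPM and did not pass (log2 fold change 0.24, edgeR adjusted p = 0.0606).

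**Figure D2:**
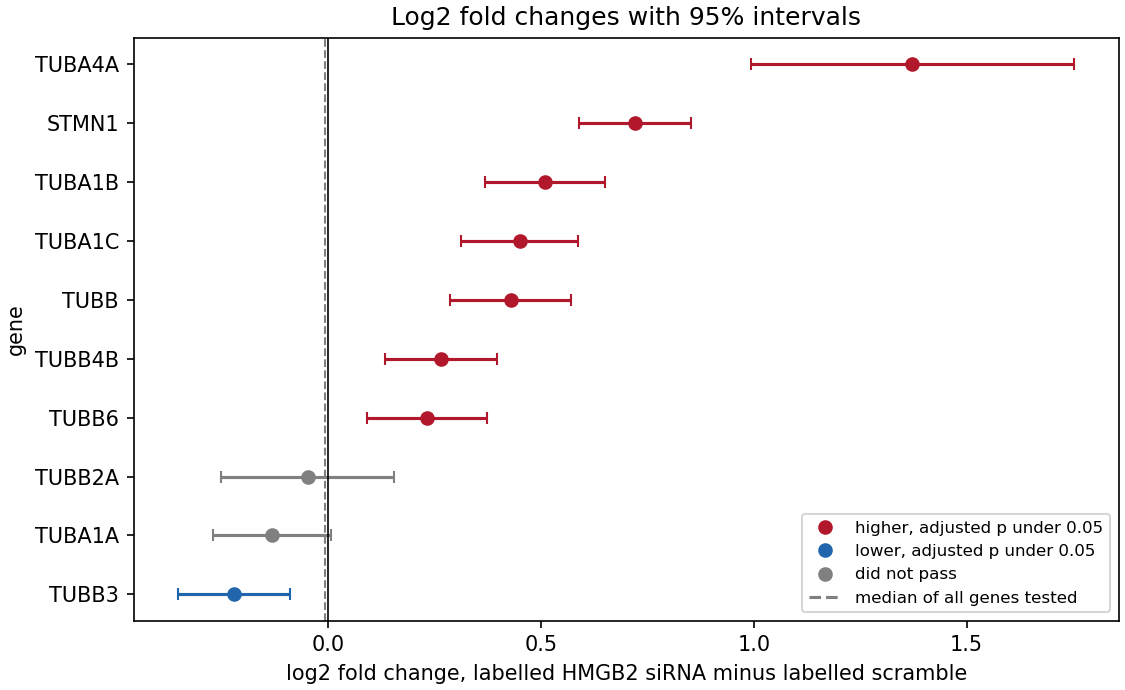
Log2 fold change of each gene (points) with its 95% interval (bars), labelled HMGB2 siRNA minus labelled scramble, over 2 against 2 libraries. TUBA4A at 1.37 and STMN1 at 0.72 lie farthest to the right, and TUBB3 at -0.22 is the gene called lower.

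TUBB4B (chromosome 9, 137241287 to 137243707, plus strand), a beta-tubulin of most dividing cells, had the highest level of the beta members as counted. It had 463 and 481 CPM with the label HMGB2 siRNA and 411 and 375 CPM with the label scramble, with no overlap. It was 1.20-fold higher (log2 fold change 0.26 ± 0.07; edgeR adjusted p = 0.00128), and lost the call without HMGB2 siRNA replicate 2 (0.24, edgeR adjusted p = 0.0817). TUBB6 (chromosome 18, 12307669 to 12329826, plus strand), a divergent beta isotype of widespread but low expression, had 157 and 151 CPM against 143 and 120 CPM. It was 1.17-fold higher (log2 fold change 0.23 ± 0.07; edgeR adjusted p = 0.0086). This call was the least stable of the set. It was lost without either library labelled HMGB2 siRNA (0.21 without replicate 1, edgeR adjusted p = 0.183, and 0.26 without replicate 2, edgeR adjusted p = 0.0588) and without scramble replicate 2 (0.11, edgeR adjusted p = 0.177), and it was 0.37 without scramble replicate 1. TUBB6 shares 638 exonic bases, 20.4% of its length, with AFG3L2 on the opposite strand. AFG3L2 had 88.4 and 88.1 CPM against 91.4 and 89.4 CPM and did not pass. TUBB4B shares 123 exonic bases, 7.9% of its length, with FAM166A on the opposite strand, which had 1 to 8 counts per library.

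TUBB3 (chromosome 16, 89921925 to 89936097, plus strand), the beta-tubulin typical of neurons that carcinomas can also express, moved against the other called tubulins. It had 197 and 189 CPM in the libraries labelled HMGB2 siRNA (HMGB2 4021 and 2746 counts) and 216 and 234 CPM in those labelled scramble (HMGB2 346 and 319 counts). The groups did not overlap, and the log2 fold change was -0.22 ± 0.07 (SE; edgeR adjusted p = 0.00701). TUBB3 lost the call without replicate 1 (-0.25, edgeR adjusted p = 0.0926) or replicate 2 (-0.19, edgeR adjusted p = 0.229) labelled HMGB2 siRNA. TUBB2A (chromosome 6, 3153666 to 3157544, minus strand), also prominent in neurons, had 21.9 and 19.9 CPM against 21.1 and 22.3 CPM. Its groups overlapped, and the log2 fold change of -0.05 (95% interval -0.25 to 0.16) did not pass (edgeR adjusted p = 0.768).

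TUBB (chromosome 6, 30720352 to 30725422, plus strand), the class I beta-tubulin of most cell lines, had 91.7 and 100.8 CPM with the label HMGB2 siRNA and 69.6 and 73.1 CPM with the label scramble. It was 1.35-fold higher (log2 fold change 0.43 ± 0.07; edgeR adjusted p = 3.43e-06). Its level has to be read with the assembly in mind. TUBB lies in the major histocompatibility region, and its row lists exons on 7 alternative sequences of the assembly besides chromosome 6, so the deposited length is 22985 bases where the chromosome 6 exons cover 2873. How reads that match several copies were counted was not given in the sources used here, and its part in the level of TUBB was not tested. Of 54 protein-coding genes of chromosome 6 with exons on 7 alternative sequences, 37 (68.5%) had 0 counts in all 4 libraries. Among 760 without such copies, 109 (14.3%) did. None of the 54, which include TUBB, had a higher mean count than TUBB, against 110 of the 760. These groups of genes were not matched for how broadly they are expressed, and the cause of the difference was not tested. The other members have no alternative sequence.

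STMN1 (chromosome 1, 25884179 to 25906880, minus strand) had the second largest fold change. It had 407 CPM in each of the libraries labelled HMGB2 siRNA (HMGB2 4021 and 2746 counts) and 260 and 234 CPM in those labelled scramble (HMGB2 346 and 319 counts). It was 1.65-fold higher, a log2 fold change of 0.72 ± 0.07 (SE; edgeR adjusted p = 7.83e-13). The log2 ratio of the CPM of STMN1 to the summed CPM of the 9 tubulins was -3.07 and -3.09 with the label HMGB2 siRNA and -3.43 and -3.41 with the label scramble. No test was made of this ratio, since 2 against 2 values cannot give an exact two-sided permutation p below 0.333. STMN1 shares 31 exonic bases, 0.9% of its length, with MIR3917 on the same strand, which was listed at 0 in all libraries.

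Levels of different genes were compared per length, as CPM per kilobase of merged exons on the primary chromosome. The order of the means over 4 libraries was TUBA1B (940.0), TUBB4B (277), TUBA1C (162), TUBB3 (103), STMN1 (95.6), TUBB6 (45.6), TUBA1A (38.4), TUBB (29.2), TUBB2A (12.2) and TUBA4A (1.96). TUBA1B ranked 46 among 15122 genes. The place of TUBB in this order rests on its count, with the limit on its alternative sequences given above. The order of TUBB3 and STMN1 differed by group: STMN1 had 119 and 119 CPM per kilobase and TUBB3 97.2 and 93.4 in the libraries labelled HMGB2 siRNA, while in those labelled scramble STMN1 had 75.9 and 68.5 and TUBB3 107 and 116. TUBB6 (38.2 to 50.1) and TUBA1A (36.5 to 40.7) overlapped.

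TUBA1B made up most of the alpha-tubulin members per length in every library, 83.0 ± 0.079% (SD, n = 2) with the label HMGB2 siRNA and 81.3 ± 0.38% (SD, n = 2) with the label scramble. TUBA1A took 2.77% and 2.73% against 3.86% and 4.61%. Among the beta-tubulins, TUBB4B took 60.7% and 62.1% with the label HMGB2 siRNA and 58.2% and 55.5% with the label scramble. TUBB3 took 19.9% and 18.8% against 23.6% and 26.8%, so the groups did not overlap for either isotype. The share of TUBB was 6.54% and 7.07% against 5.37% and 5.89%, and with the deposited length it was 0.867% and 0.942% against 0.704% and 0.777%. All beta shares, and the beta sum below, rest on the TUBB count, and the part of its alternative sequences was not tested. The summed CPM per kilobase of the alpha members was 1331 ± 9.98 with the label HMGB2 siRNA and 954 ± 101.4 with the label scramble (SD, n = 2 each), and that of the beta members 492 ± 5.4 and 442 ± 14 (SD, n = 2 each). The 9 tubulins together took 0.338% and 0.338% of all counts with the label HMGB2 siRNA and 0.282% and 0.256% with the label scramble.

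**Figure D3:**
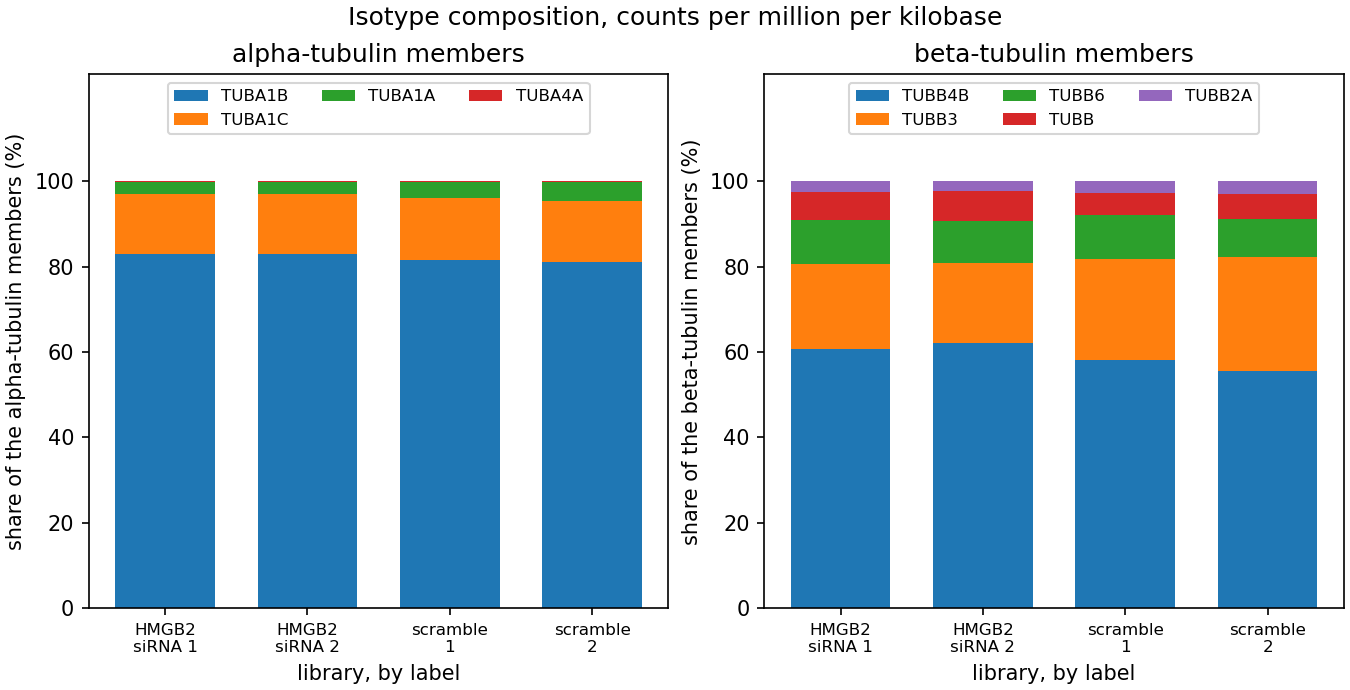
Share of each isotype (%) among the alpha-tubulin members (left) and the beta-tubulin members (right), from CPM per kilobase, in each of the 4 libraries. In the beta panel TUBB3 takes 19.9% and 18.8% with the label HMGB2 siRNA and 23.6% and 26.8% with the label scramble.

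Near-identical sequence limits how reads divide between some members. Coding sequences of TUBA1B and TUBA1C were 97.3% identical, TUBA1A and TUBA1B 97.2%, and TUBA1A and TUBA1C 96.3%. Pairs of beta members were 81.4% to 88.8% identical, and an alpha with a beta member 58.7% to 62.1%. A stretch of 50 bases was then used as a stand-in for a read, and all such words of a gene's transcripts were sought in transcripts of genes at other loci and of the other members. Of the words of TUBA1A, TUBA1B and TUBA1C, 33.6%, 25.6% and 23.9% were shared, mostly among these 3 genes. TUBB2A shared 58.7%, mainly with its neighbour TUBB2B, and TUBB shared 14.2%, mainly with the pseudogenes TUBBP1 and TUBBP2. The share was 7.4% for TUBB4B, 3.3% for TUBB3, 1.5% for STMN1, 0.4% for TUBB6 and 0.0% for TUBA4A. Over the coding sequence alone more was shared: 58.5% for TUBA1A, 75.7% for TUBA1B, 57.1% for TUBA1C, 78.7% for TUBB2A and 33.5% for TUBB. For the other members the coding share was 0.0% to 12.2%. Genes that overlap a member at its own locus, such as STK16 and TUBA4B for TUBA4A, were left out of this comparison. Copies of a gene on alternative sequences were not counted as shared either. The shares of TUBB therefore leave out its 7 alternative sequences and cannot be ranked against those of the other members. The 55 tubulin and stathmin 1 pseudogenes of the tables held 95 to 160 counts per library together, with TUBBP1 (20 to 49 counts) and TUBBP10 (17 to 29 counts) at the top, against 51996 to 107596 counts for the 9 tubulins.

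Promoter windows were read because several members moved together. RefSeq windows (GRCh38.p14, 250 bases before to 50 after each start) were found for all 10 genes, 17 windows in all. The CCAAT box (letters CCAAT, either strand), the element bound by NF-Y, was present in 9 of these 17 windows, beside 34.6% of all 35116. For TUBA1C the same site lay in overlapping windows (offsets -104 and -197) and was counted in each. By gene the box was present in 7 of 10. Genes have 1 to 3 windows here, and no share by gene over all genes was computed. The box was found in 5 of the 7 genes called higher (TUBA1C, TUBB, TUBB4B, TUBB6 and STMN1), and also in TUBA1A and in TUBB3. Matches are shown with up to 10 bases on each side and the motif in capitals, written as the strand of the gene reads (ATTGG is CCAAT on the other strand).
STMN1, chr1:25906480-25906504, minus strand: ccgctctcggCCAATgcggagcccc
TUBB, chr6:30720177-30720201, plus strand: ggctcagaggCCAATggacgcctgg
TUBB4B, chr9:137241174-137241198, plus strand: gggggcaaggCCAATcaaacgaggg
TUBB6, chr18:12308163-12308187, plus strand: gcccgcagccATTGGcgagcggcgg
TUBA1C, chr12:49264912-49264936, plus strand: tttgaatccgCCAATcagcgccgcg
TUBB3, chr16:89923253-89923277, plus strand: gcgcctcccgATTGGccacccgcgg
TUBA1A, chr12:49189191-49189215, minus strand: gtcgcttgcaCCAATcaccagtctc

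TUBB4B held 3 matches in its single window, at offsets of -232, -166 and -103 bases from the start. The window of STMN1 that matched had it at -75, and those of TUBB6 and TUBB3 at -68 and -79. The letters TTTGAA are the core of the cell cycle homology region read by the DREAM and MuvB complexes. They were present in 4 of 17 windows beside 15.2% of all. By gene this was 2 of 10, TUBA1C with 3 windows and TUBB4B with 1. The offsets were -178, -173, -170 and 6 bases in TUBA1C and -242 bases in TUBB4B. TTCGAA was present in 1 window, of TUBB3, beside 1.45% of all. GGGCGG, the GC box, was present in 10 of the 17 windows beside 45.0% of all, and TATAAA in 1 window, of TUBB2A, beside 11.5% of all. A match is only a run of letters, and no binding was measured here.

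Words in 3′ untranslated regions (3′UTRs) were read as well, since 3 heptamers had been picked earlier because they went with fold changes in these same libraries. GACAAAG was present in 10.5% of 11887 tested genes and in 0 of the 10 members. For ATAGTAA the share was 10.7%, again with 0 of 10. For AATAGTA it was 10.8%, also with 0 of 10. ATAGTAA and AATAGTA share the letters ATAGTA, so their counts are not independent. The 3′UTRs of the members run from 151 bases (TUBB4B) to 1376 bases (TUBA1C), and the shares over all genes were not matched for length. The absence of a word says only that these letters are not in the annotated 3′UTR.

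The genes whose pattern over the 4 libraries was closest to that of TUBA4A were sought among 10573 genes of at least 5 CPM. Likeness was the Euclidean distance of log2 CPM centred on each gene's mean. They were DHH, a hedgehog ligand (distance 0.053), LITAF, a protein of late endosomes (0.077), and SRXN1, a sulfiredoxin that restores oxidised peroxiredoxins (0.11). DHH had 8.75 and 9.45 CPM with the label HMGB2 siRNA and 3.77 and 3.07 CPM with the label scramble. Within the set, the closest pairs were TUBA1B with TUBA1C (0.061), TUBA1A with TUBB3 (0.11) and TUBB4B with TUBB6 (0.12). The farthest was TUBA4A with TUBB3 (1.6).

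Other genes of the microtubule system were read from lists drawn up by function, all as labelled HMGB2 siRNA (HMGB2 4021 and 2746 counts) against scramble (HMGB2 346 and 319 counts). The counts of each list are to be read beside the 16.7% of all tested genes called higher and the 14.1% called lower, and with so few genes a list they are descriptions. Among 13 other tubulin genes 8 could be tested, of which 1 rose, 0 fell and 7 did not pass. The gene that rose was TUBG1, the gamma-tubulin that seeds microtubules, with 82.0 and 79.1 CPM against 63.8 and 54.6 CPM (log2 fold change 0.45 ± 0.07; edgeR adjusted p = 4.82e-06). TUBB2B, the neighbour of TUBB2A, had a log2 fold change of -0.15 and did not pass. Of the 3 other stathmins STMN2 and STMN4 were listed at 0 in all libraries, and STMN3 rose 1.22-fold (edgeR adjusted p = 0.0106).

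Tubulin needs chaperones and cofactors to fold into a dimer. Of 7 folding cofactors 3 rose and 0 fell, beside 16.7% and 14.1% of all genes: TBCEL, a relative of the cofactor TBCE, 1.81-fold, ARL2, a small GTPase that works with them, 1.37-fold, and TBCE itself 1.19-fold. Of 14 tested genes of the CCT chaperonin, which folds newly made tubulin, and of prefoldin, which delivers it, 2 rose, 0 fell and 12 did not pass, and the median of their log2 fold changes was 0.05. With upper-quartile or total-count scaling 1 rose and 1 fell. Those that rose were VBP1 (1.18-fold) and CCT4 (1.14-fold). PFDN6, a prefoldin subunit whose gene has alternative sequences like TUBB, had 0 to 3 counts per library and was not tested.

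In the list for tubulin transcript autoregulation 2 of 8 rose and 0 fell, which is near the 16.7% called higher over all genes. They were the deadenylase subunits CNOT8 (1.38-fold) and CNOT1 (1.16-fold). TTC5, which reads the nascent chain, had 11.9 and 10.5 CPM against 9.86 and 10.4 CPM, and SCAPER, which links it to the deadenylase, had 10.9 and 12.2 CPM against 10.99 and 12.3 CPM. Neither passed, with log2 fold changes of 0.16 (95% interval -0.11 to 0.42) and -0.02 (95% interval -0.28 to 0.23).

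Of 13 tested tubulin modifying enzymes 3 rose, 0 fell and 10 did not pass. The number that fell depended on the scaling and the filter: 3 fell with upper-quartile scaling, as many as rose, and 2 with total-count scaling, with a mean of at least 1 CPM or with thinned libraries. TTL, the ligase that restores the terminal tyrosine of alpha-tubulin, had 128 and 126 CPM with the label HMGB2 siRNA and 74.4 and 69.6 CPM with the label scramble, and rose 1.76-fold (edgeR adjusted p = 5.87e-14). TTLL7, a glutamylase that prefers beta-tubulin, rose 1.56-fold and AGTPBP1, which removes glutamates, 1.35-fold. The acetyltransferase gene ATAT1, which has alternative sequences as well, was listed at 0 in all libraries. In the gamma-tubulin ring complex 2 of 9 rose and 0 fell, MZT1 1.904-fold and NEDD1 1.17-fold.

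The balance of growing and shrinking microtubules is set by destabilising, severing and stabilising proteins. Of 8 destabilising and severing genes 6 rose and 0 fell, beside 16.7% and 14.1% of all genes, and the median of their log2 fold changes was 0.39. SPAST, a severing enzyme, rose 1.87-fold, the depolymerising kinesins KIF18B and KIF2C 1.52-fold and 1.45-fold, and FIGNL1 1.31-fold. Of 14 stabilisers and plus-end proteins 8 rose and 1 fell. MAPRE3, an end-binding protein, had 24.4 and 24.2 CPM against 8.49 and 9.22 CPM and rose 2.75-fold (edgeR adjusted p = 7.25e-15). TPX2, a spindle assembly factor, rose 1.52-fold, TACC3 1.40-fold and MAP1B 1.27-fold, and the one that fell was MAP7, with a log2 fold change of -0.44. Of 10 kinases known to phosphorylate stathmin 4 rose and 0 fell: CDK1 1.56-fold, AURKB 1.45-fold, MAPK8 1.26-fold and PRKACA 1.26-fold. Several of these counts depended on the scaling or on 1 library. With upper-quartile or total-count scaling 1 ring complex gene rose and 1 fell, 1 stathmin kinase fell and 2 stabilisers fell. DESeq2 called 1 ring complex gene higher. Without HMGB2 siRNA replicate 1 fewer stabilisers, stathmin kinases, autoregulation, ring complex and chaperonin or prefoldin genes were called higher, and MAP7 lost its call. Fewer destabilising and severing genes, folding cofactors and modifying enzymes were called higher there as well. Without HMGB2 siRNA replicate 2 fewer stabilisers, autoregulation, ring complex and chaperonin or prefoldin genes were called higher, and STMN3 lost its call. More destabilising and severing genes were called higher there, and as many folding cofactors, modifying enzymes and stathmin kinases as in the main analysis. Without scramble replicate 2, 3 other tubulins were called higher and STMN3 was not. Without scramble replicate 1 the genes called lower were 2 stabilisers, 1 modifying enzyme and 1 stathmin kinase. Calls of lower also appeared without scramble replicate 2, in the modifying enzyme, ring complex and chaperonin or prefoldin lists. As many stabilisers were called lower there as in the main analysis.

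**Figure D4:**
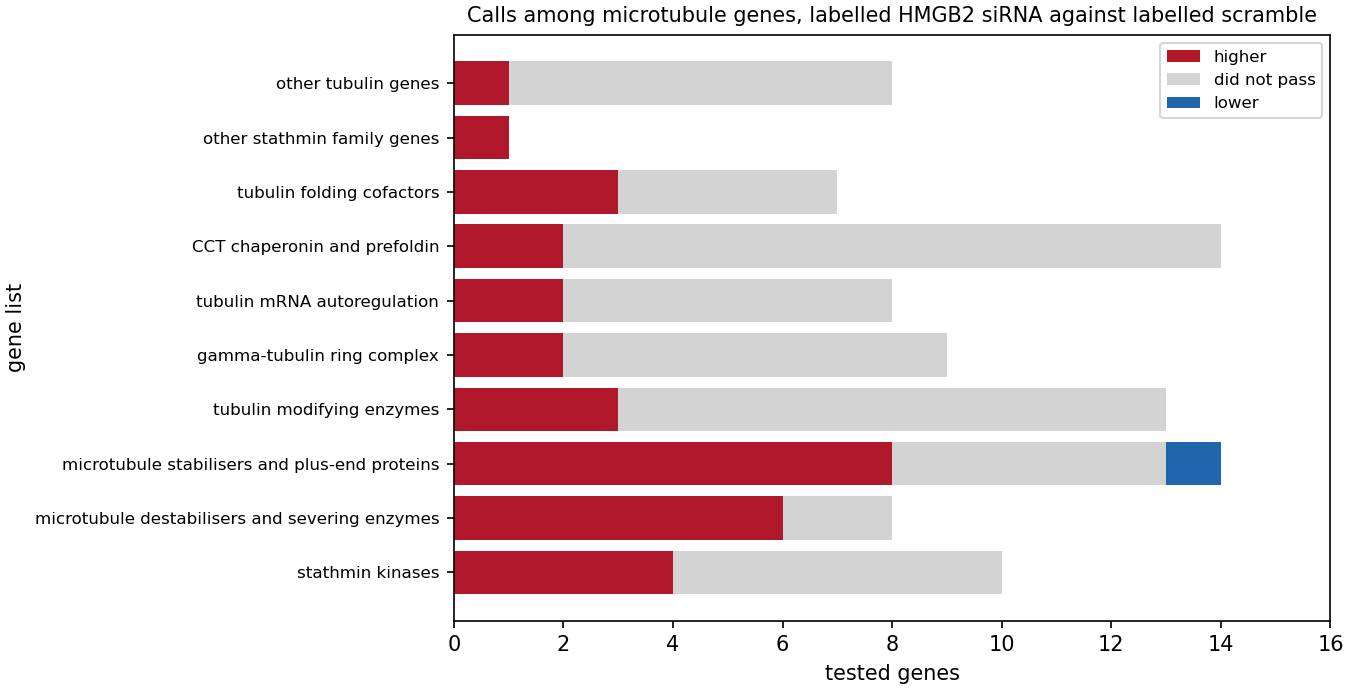
Number of tested genes in each microtubule list that were called higher, called lower or did not pass in the libraries labelled HMGB2 siRNA against those labelled scramble. The destabilisers and severing enzymes have 6 of 8 genes called higher, and the chaperonin and prefoldin list 2 of 14.

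The calls of the 10 genes were compared over the settings of the analysis. TUBA4A kept its call under all 14 alternatives, with log2 fold changes of 1.26 to 1.51. STMN1, TUBA1B, TUBA1C and TUBB kept theirs under all but the test against a 1.5-fold change, with ranges of 0.65 to 0.80, 0.40 to 0.63, 0.34 to 0.58 and 0.37 to 0.50.

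**Figure D5:**
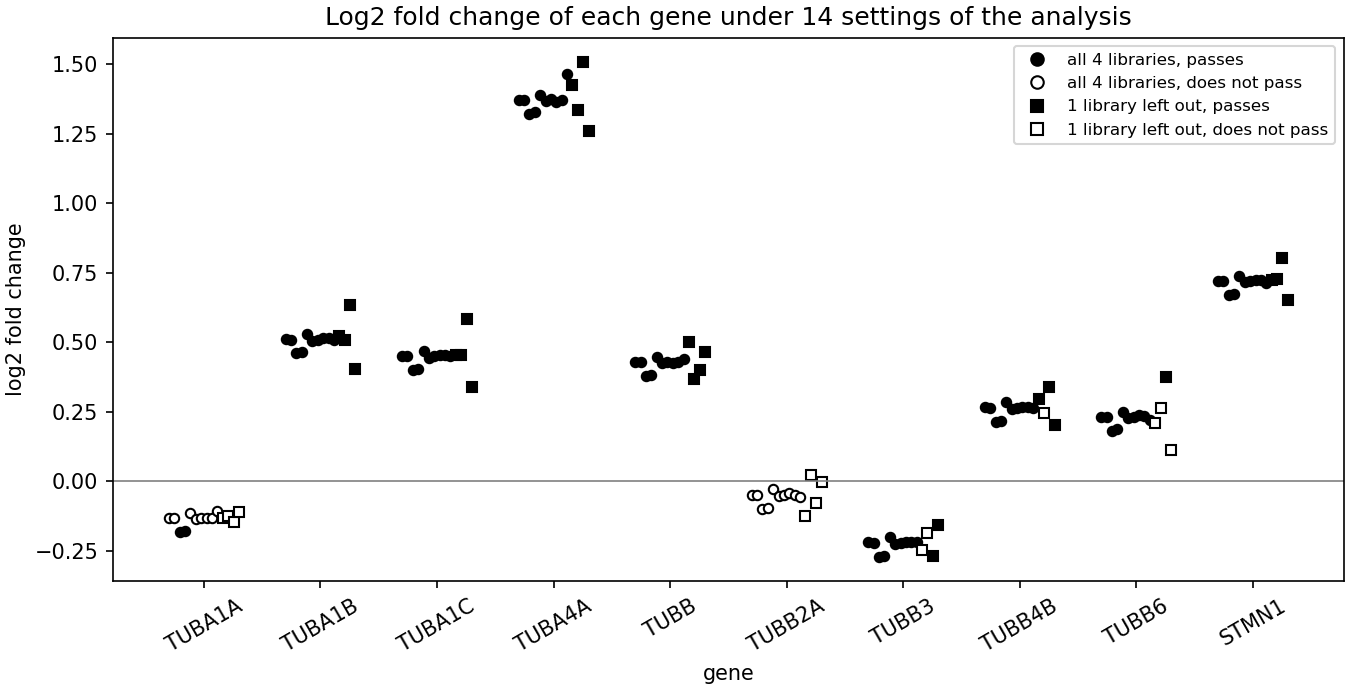
Log2 fold change of each gene under the main analysis and its alternatives, other than the test against a 1.5-fold change. Circles use all 4 libraries and squares leave 1 out, and open symbols do not pass an adjusted p of 0.05. TUBB6 has open squares down to 0.11, while all symbols of TUBA4A lie between 1.26 and 1.51.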

How the data were processed

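Poly(A) RNA of 4 Panc1 libraries was measured. Each deposited table holds raw read counts for the genes of 1 library, as whole numbers over the listed exons, per the file headers. STAR, SAMtools 1.9, featureCounts of Subread 1.6.3, DESeq2 and hg38 (GRCh38) are named, per the submitters' processing notes. The strand, multimapping and overlap settings are not given in the sources used here. Tables were assigned to samples as deposited and samples to groups by label (2 against 2).

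Counts were tested with edgeR 4.0.16 (glmQLFit, glmQLFTest; R 4.3.3) on all genes in a model of group alone, with TMM factors and filterByExpr (smallest count 10, smallest total 15), and Benjamini-Hochberg adjustment over 15161 genes. The standard error is the log2 fold change divided by the root of F. The common biological coefficient of variation was 0.0507. Counts were simulated with this spread for every gene, and changes were planted only in genes above 1 CPM. Differences in spread between genes were left out, so the recovery below need not hold for real genes. On simulated counts of 15161 genes for this comparison, the share of planted changes recovered was 38% at 1.25-fold, 82% at 1.5-fold, 94% at 2-fold and 100% at 4-fold, and 11 other genes were called.

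Members and lists were chosen with earlier results of these data known. Named genes were all members, HMGB2, up to 4 passing genes with the smallest p per list, the 3 genes most like the member with the largest fold change, the 2 pseudogenes with the highest counts, and genes sharing exonic bases with a member. Other genes named with values, such as TTC5, TUBB2B and PDGFRB, were chosen after their values were seen. As alternatives, scaling was done by RLE, upper quartile or library total, the filter was dropped or set to a mean of at least 1 CPM, and DESeq2 1.42.0 and limma-voom (limma 3.58.1) replaced edgeR. Others were the replicate block, glmTreat against 1.5-fold, libraries thinned to the smallest total, and each library left out. Protein sequences were not used here, so identity was computed on coding bases (Biopython 1.88). A library with 0 reads of a gene allows up to 3 counts (0.0942 to 0.148 CPM), a limit of counting error only.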

Additional observations from a re-analysis of the deposited data

How the results depend on the processing

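The number of members called higher in the libraries labelled HMGB2 siRNA was 7 in the main analysis and 1 with the test against a 1.5-fold change, which asks for a larger effect, and it ranged from 5 to 7 when single libraries were left out. The number called lower was 1 in the main analysis, 2 with upper-quartile and with total-count scaling (TUBA1A added), 0 with the test against a 1.5-fold change, and 0 to 1 when single libraries were left out. The value of TUBB2A, which did not pass, ranged from -0.125 to 0.0216 when single libraries were left out, and changed sign without HMGB2 siRNA replicate 2 (0.0216). The cause was not tested. Labels number the libraries 1 and 2 in both groups, but deviations of same-numbered libraries from their group means did not go together (r = -0.01 over 15161 genes). With the replicate block 7 members were called higher and 1 lower, and 4457 genes were called in all, against 4671 without it. All genes called numbered 258 with the test against a 1.5-fold change, 2384 without HMGB2 siRNA replicate 1 and 2627 without replicate 2. DESeq2 called 3207, and STMN3 was not among the genes it called. TUBA4A, with 56 to 232 counts, has the least depth of the members. In the gene lists, 1 chaperonin or prefoldin gene was also called lower with RLE scaling, with a mean of at least 1 CPM and with limma-voom, and limma-voom called 1 modifying enzyme lower. With a mean of at least 1 CPM or thinned libraries, 1 stathmin kinase and 2 stabilisers were called lower, and with thinned libraries 1 ring complex gene was called higher.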
